A study of Mus musculus with 66 samples.

Results

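The comparison described here is that of C2C12 cells transfected with an siRNA against Paf1 (siPaf1) with cells given a control siRNA (siCtrl), read out by 3'READS as the use of each polyadenylation (pA) site within its gene. It rests on 4 of the 66 samples of the series, 2 siCtrl and 2 siPaf1 libraries, and its members are the pA sites that could be compared within a gene. A site entered when it lay on the sense strand of an annotated gene, held at least 5% of the reads of that gene on average over these 4 libraries, and had at least 1 other such site beside it in a gene with a mean of at least 20 reads. This left 17940 of the 56283 sense pA sites of the table, in 6123 genes. The minimums of share and of reads are means over siCtrl and siPaf1, so a site could meet them through siPaf1 alone. C2C12 is a line of mouse myoblasts that can be grown as muscle precursors or turned into myotubes, and all libraries were made from myoblasts 48 h after transfection with 50 nM of siRNA. The labels place 1 library of each group in batch 1 and 1 in batch 2, and the other 3 libraries of this assay, 2 for Cdc73 and 1 for Ski8, entered the fit with terms of their own, where the siCdc73 pair adds to the estimate of the spread and the lone siSki8 library does not. The cells are a single line, and nothing in the sources used here says that the batches were independent cultures, so p-values measure the spread between these libraries, which may be technical.

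Most mammalian genes carry more than 1 pA site, the place where the nascent transcript is cut and given its poly(A) tail, and the choice among them is called alternative cleavage and polyadenylation (APA). A site in an intron yields a transcript that lacks the exons downstream and so a shorter or absent protein, whereas a site within the 3'-most exon leaves the protein as it is and shortens or lengthens the 3'UTR, in which microRNAs and RNA-binding proteins bind. Paf1 is a subunit of Paf1C, a complex that travels with RNA polymerase II and takes part in elongation, in histone modification and in the processing of the 3' end. In 3'READS, RNA fragments that end in a genuine poly(A) tail are sequenced from that tail, so each read marks a cut site and a gene gives reads in proportion to its polyadenylated transcripts.

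Reads at pA sites numbered 7385518 in siCtrl and 7816867 in siPaf1 in batch 1, and 9804681 and 13403708 in batch 2. The sites of Paf1 itself held 17.6 and 18.2 CPM, counts scaled to the same total in each library, in siCtrl and 2.94 and 3.21 in siPaf1, so the targeted transcript was lower in both batches, and in RNA-seq its log2 change was -2.38 (edgeR adjusted p = 2.34e-08). Myoblast markers summed to between 1755 and 3279 CPM over all 7 libraries, mainly from Des and Vim, whereas Myod1, a defining regulator of myoblasts, stood at or below 0.597 CPM in each of them. Markers of myotubes summed to 101 and 262 CPM in siCtrl of batches 1 and 2 and to 183 and 505 CPM in siPaf1, so the sum was higher after siPaf1 in both batches. Not every marker followed it, as Myog stood at 14.2 CPM in siCtrl and 9.4 in siPaf1 of batch 2 and Ckm at 0.812 and 0.384 CPM in batch 1, and their part in the results was not tested. The siPaf1 library of batch 2 stood apart: 21 of 24 testis germ cell markers are listed in the table, all had reads there, and they summed to 2536 CPM against 1.49 to 39.4 CPM in the other libraries. In that library 204 genes were more than 20-fold above every other library, with 1.01% of its reads, and 47 of them had sites in the comparison. A site was therefore called only when the direction in batch 1 was the same as that of the fit, and the values of each batch are given throughout.

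After siPaf1 intronic sites were used more and the last sites of genes less. Of the reads at tested sites, introns held 5.00% and 3.76% in siCtrl of batches 1 and 2 and 6.82% and 6.30% in siPaf1, and last sites 48.6% and 49.7% against 46.9% and 46.2%. Shares were compared by the odds of a read falling at the site rather than elsewhere in the gene (edgeR's quasi-likelihood test with the batch as a block, Benjamini-Hochberg adjustment over all sites, threshold 0.05). Over all sites, 812 were higher after siPaf1, which is 4.53% of those tested, and 675 were lower, which is 3.76%. Among the 3102 intronic sites, 347 rose (11.2%) and 108 fell (3.48%). The 147 sites of internal exons gave 19 that rose (12.9%) and 6 that fell (4.08%). In the 3'-most exon the sites upstream of the last one were called less often, with 292 higher (3.37%) and 176 lower (2.03%) of 8660. The last sites went the other way, with 154 higher (2.55%) and 385 lower (6.38%) of 6031. Since the shares of a gene sum to 100%, a rise at 1 site is a fall at others, and in the 2976 genes with exactly 2 tested sites the tests are close to mirror images. The median fitted log2 change in odds was 0.30 for intronic sites, 0.10 for upstream sites of the 3'-most exon and -0.33 for last sites. By batch, the medians were 0.29 and 0.24 for intronic sites, 0.04 and 0.13 for upstream sites and -0.16 and -0.43 for last sites, so these 3 classes kept their sign in both batches. The median of the internal exon sites was 0.33, with 0.00 in batch 1 and 0.53 in batch 2.

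**Figure D1:**
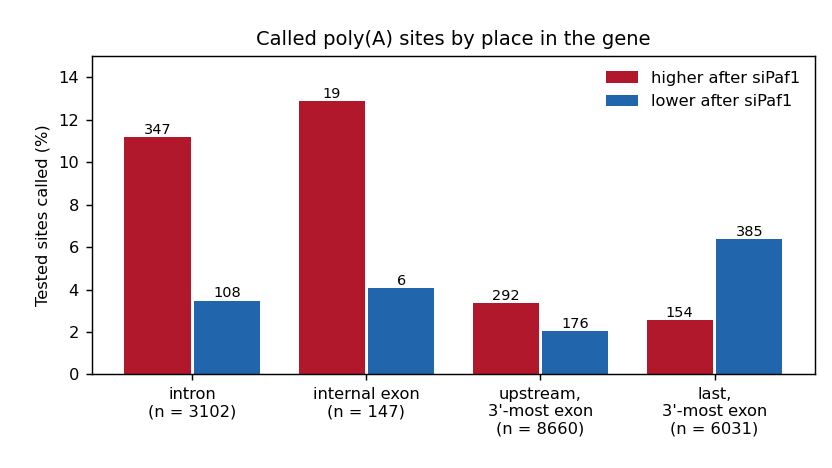
Bars give the percent of tested pA sites called higher (red) or lower (blue) after siPaf1, by the place of the site in its gene, with the number of called sites above each bar and the number tested under each class. Intronic and internal exon sites were called higher more often than lower (347 against 108 and 19 against 6), and last sites the reverse (154 against 385).

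The block by batch matters for these counts. Without it the same test called 2 sites higher and 0 lower, with 1404 sites at an unadjusted p under 0.05, whereas the difference between batches correlated between siCtrl and siPaf1 with r = 0.508 across 13466 sites. Leaving out the siPaf1 library of batch 2 left 133 intronic rises and 19 falls, leaving out siCtrl of batch 2 left 102 and 13, leaving out siCtrl of batch 1 left 185 and 52, and leaving out siPaf1 of batch 1 left 277 and 85, the remaining library of a group being assumed to vary like the others. Of the intronic calls, 74 of the 347 rises and 6 of the 108 falls were made in all of these fits.

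Before the values, the sequences at the intronic sites that carry the change are shown. Each line gives the last 30 bases of the transcript up to and including the cut position in mm9, 5' to 3' on the strand of the gene, read from the mouse genome of that build. Capitals mark the poly(A) signal AATAAA or its common variant ATTAAA, the hexamers bound by the cleavage and polyadenylation machinery. The first 6 are from the 12 intronic sites named for their rise, shown as examples with the hexamer inside the stretch, and Hnrpll and Mapk14 are from the gene lists described further on.
Col12a1 (chr9:79562712-79562741, minus strand): aacatgaAATAAAagactccaacactgcca
2310035C23Rik (chr1:107561699-107561728, plus strand): taatatatgctAATAAAaagaaggaaatga
Arfgef1 (chr1:10196459-10196488, minus strand): ggtataAATAAAtcttgagttcagagtgca
Errfi1 (chr4:150229887-150229916, plus strand): tgacttatatATTAAAggagtgaaaatgca
Syt12 (chr19:4465903-4465932, minus strand): aacctatcAATAAAtacatatttattgtca
Minpp1 (chr19:32562661-32562690, plus strand): atgaacaccAATAAAtctctttttttccaa
Hnrpll (chr17:80460358-80460387, minus strand): cctgctgtcaAATAAAaggcgttcagatga
Mapk14 (chr17:28831231-28831260, plus strand): gagtgcctggATTAAAgacttgcaacacta

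The Pcbp2 site lies at chr15:102305176-102305205 on the plus strand, and its AATAAA begins 31 bases before the cut, 1 base outside the stretch of 30 bases.
Pcbp2 (chr15:102305176-102305205, plus strand): ataaagttcatgttaagtaattgggctata
A search of the 40 bases upstream of each site, on the strand of the gene only, found AATAAA at 189 of the 347 intronic sites that rose (54.5%), ATTAAA alone at 76 (21.9%) and neither at 82 (23.6%). Over all 3102 intronic sites tested the shares were 55.2%, 17% and 27.8%, and over all 17940 sites 49.8%, 17.3% and 32.8%. Where present, the hexamer began a median of 23 bases before the cut over all sites. The risen intronic sites thus carried the signals about as often as intronic sites in general.

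Col12a1 and Pcbp2 changed from their normal 3' end to an intron. Col12a1 encodes the alpha chain of collagen XII, which sits on the surface of collagen fibrils, and its intronic site lies in intron 2 of 65, 3.61 kb from the start of the gene, with 0.794% of the coding sequence upstream of it. That site held 7.47% and 8.81% of the Col12a1 reads in siCtrl, batch 1 first here and below, and 89.1% and 84.4% in siPaf1. The Wilson 95% intervals, which cover counting error only, were 4.94% to 11.2% and 5.78% to 13.2% in siCtrl and 87.9% to 90.2% and 83.3% to 85.5% in siPaf1. The fitted log2 change in odds was 6.24 (SE 0.50, adjusted p = 2.71e-32). The last site of Col12a1 fell from 77.9% and 76.2% to 7.83% and 13.4% (log2 change -4.88, SE 0.47, adjusted p = 7.05e-22). Relative to the library total, however, the 3'-most exon was not lower: it held 35.2 and 21.1 CPM in siCtrl and 38 and 49.0 CPM in siPaf1. The intronic site went from 2.84 and 2.04 to 312 and 266 CPM.

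Pcbp2, a poly(C)-binding protein that acts in mRNA stability and translation, gave the same picture. Its site in intron 5 of 14, 4.14 kb from the gene start with 22.4% of the coding sequence upstream, held 1.90% and 3.12% of reads in siCtrl (13 of 685 and 46 of 1473) and 66.3% and 71.2% in siPaf1 (1423 of 2146 and 5741 of 8069). The log2 change was 6.43 (SE 0.46, adjusted p = 2.7e-39). All 3 sites of its 3'-most exon fell, from 44.8% and 47.2% to 11.9% and 16.1% at the site most used in siCtrl, from 24.4% and 14.2% to 9.09% and 4.55% at the next and from 19.3% and 24.1% to 7.60% and 3.30% at the last. The calls of these latter sites were lost without siCtrl of batch 2, and that of the former of them also without siCtrl of batch 1. The 3'-most exon stood at 91 and 146 CPM in siCtrl and 92.5 and 174 CPM in siPaf1, so here too it was not lower in CPM while the intronic share rose. In RNA-seq, which counts reads over the coding region, Pcbp2 had a log2 change of 0.51 that missed the threshold (edgeR, adjusted p = 0.0745).

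Trp53inp1, a stress protein induced by p53, changed within its 3'-most exon instead. In siCtrl most of its reads, 88.8% and 75%, ended at a site 17.9 kb from the gene start, and this share fell to 45.8% and 28.7% in siPaf1 (log2 change -3.05, SE 0.50, adjusted p = 1.36e-07). The 3 sites upstream of it, which give shorter 3'UTRs, rose. The nearest to the gene start held 1.08% of 465 and 0 of 791 reads in siCtrl, the latter allowing up to 0.379% (for 0 reads the limit given throughout is 3 reads of the total, not the Wilson bound), and 10.1% and 10.3% in siPaf1. The next, at 14.1 kb, went from 0.86% and 2.65% to 22% and 36.1% (log2 change 4.51, SE 0.57, adjusted p = 1.09e-12) and the third from 0 of 465 reads, which allows up to 0.645%, and 0.88% to 7.38% and 12.1%. The last site, at 18.8 kb, held 9.25% and 21.5% in siCtrl and 7.10% and 8.72% in siPaf1 and was not called (adjusted p = 0.26). By RNA-seq the gene as a whole was higher after siPaf1 (log2 change 1.68, edgeR adjusted p = 3.39e-05).

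**Figure D2:**
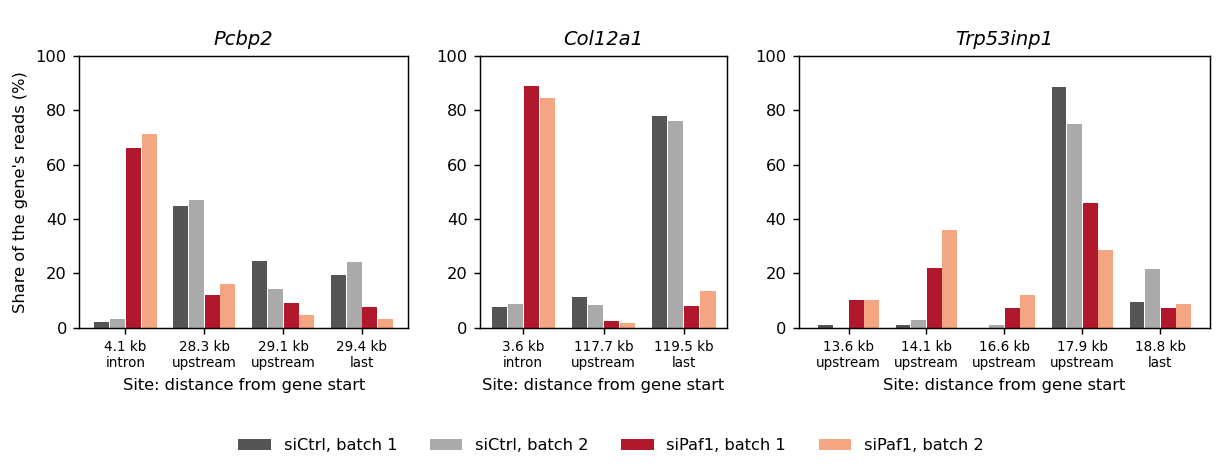
Bars give the share of the reads of each gene at each of its tested pA sites in the siCtrl (grey) and siPaf1 (red) libraries, with sites in order of their distance from the gene start and named by their class. In Pcbp2 and Col12a1 the intronic site took 66.3% to 89.1% of the reads in siPaf1, and in Trp53inp1 the 3 sites closest to the gene start rose while the main site fell from 88.8% and 75% to 45.8% and 28.7%.

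The other named intronic rises lay in genes of varied function, which were not tested as a group. Arfgef1 encodes an exchange factor that activates ARF GTPases at the Golgi, and its site in intron 6 of 37 went from 5.09% and 5.78% to 68.4% and 67.4% (log2 change 5.18, SE 0.52, adjusted p = 2.17e-20) while its 3'-most exon stood at 41.8 and 37.5 CPM in siCtrl and 42.7 and 41.7 CPM in siPaf1. Kdm3a, a demethylase of histone H3 lysine 9, had 0 of 51 reads at its site in intron 10 of 25 in the siCtrl library of batch 1, which allows up to 5.88%, and 10.1% in batch 2, against 78.4% and 70.6% in siPaf1. The site in intron 1 of Errfi1, a feedback inhibitor of the EGF receptor, lies 0.734 kb from the gene start and ahead of the whole coding sequence. It was already in use in siCtrl, with 29% and 40.1% of reads, and reached 91.3% and 96.7% in siPaf1. Its level went from 2.71 and 6.43 to 96.8 and 267 CPM, whereas the 3'-most exon of Errfi1 held 6.63 and 9.49 CPM in siCtrl and 8.32 and 8.95 CPM in siPaf1. The siCtrl and siPaf1 shares of these 3 genes lay far apart in both batches.

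2310035C23Rik, a gene known only by its clone name here, had a site in intron 1 of 28 that went from 19.5% and 9.06% to 92.4% and 84.3%. Minpp1, a phosphatase of inositol polyphosphates in the endoplasmic reticulum, went from 25.6% and 11.7% to 77.9% and 82.4% at a site in intron 1 of 4. Zfp280c, a zinc finger protein, and Syt12, a member of the synaptotagmin family, had few reads in siCtrl. Zfp280c had 0 of 26 reads at its intronic site in batch 1, which allows up to 11.5%, and 9.68% in batch 2, against 71.4% and 81.8% in siPaf1. Syt12 had 0 of 95 reads, which allows up to 3.16%, and 14.2% in siCtrl and 55.4% and 77.4% in siPaf1, and was also lower in RNA-seq (log2 change -1.27, edgeR adjusted p = 0.000916). Dvl3, a Dishevelled protein that passes on Wnt signals, had a site 0.657 kb from the gene start. It held 3 of 7 and 2 of 18 reads in siCtrl and 238 of 243 and 171 of 171 in siPaf1. With so few reads in siCtrl, Dvl3 met the minimum of 20 reads only through siPaf1.

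Casc5, which encodes a scaffold of the kinetochore, and Ell2, an elongation factor that joins the super elongation complex, had low levels at their intronic sites also after siPaf1. Casc5 went from 20.2% and 12.7% to 72.9% and 75.2%, but its intronic site moved only from 2.57 and 2.65 CPM to 5.50 and 6.57, while its 3'-most exon dropped from 10.2 and 18.3 CPM to 2.05 and 2.16. Ell2 went from 5.00% and 12% to 61.0% and 78.1% with 20 and 50 reads of the gene in siCtrl, and its 3'-most exon held 2.30 and 3.98 CPM in siCtrl and 0.895 and 1.34 CPM in siPaf1. A 3'-most exon that was lower in both batches was also seen in 2310035C23Rik, with 12.9 and 27.6 CPM in siCtrl and 9.21 and 14.5 in siPaf1, in Syt12, with 12.2 and 8.36 and then 5.12 and 6.27, and in Zfp280c, with 3.11 and 2.86 and then 0.512 and 2.69. Casc5 was no longer called without the siCtrl or the siPaf1 library of batch 2, and Ell2 was no longer called without either of these or siCtrl of batch 1. The others of the 12 sites were called in each of the 4 fits with 1 library left out, but Dvl3 had met the minimum of reads only through siPaf1.

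**Figure D3:**
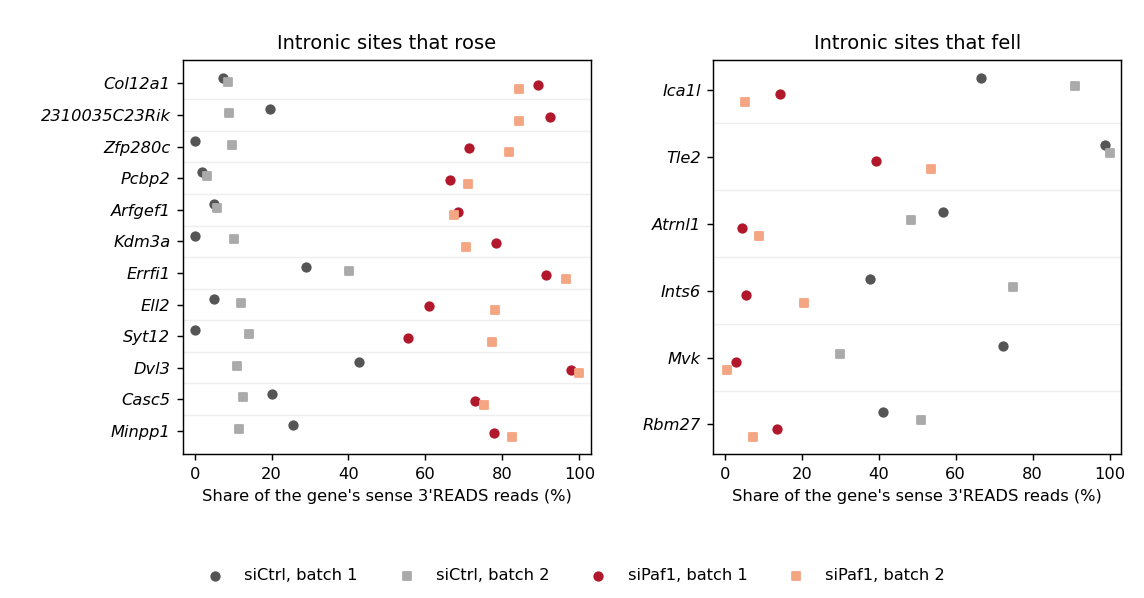
Points give the share of each gene's reads at its intronic pA site in the 2 siCtrl (grey) and 2 siPaf1 (red) libraries, with circles for batch 1 and squares for batch 2, for the 12 named sites that rose and the 6 that fell. In every row the siPaf1 points lie on 1 side of the siCtrl points, as the choice of these sites requires.

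The risen intronic sites lay closer to the gene start than the intronic sites tested. Of those that could be placed in an intron of the gene model with the longest coding sequence, 337 of 347, the median distance from the start was 7.59 kb (quartiles 2.68 and 20.5 kb), against 19.5 kb (7.25 and 48.0 kb) for the 2943 placed intronic sites tested and 26.7 kb (13.3 and 77.5 kb) for the 104 that fell. Within 5 kb of the start lay 40.9% of the risen sites, 19% of those tested and 4.81% of those that fell. The median share of the coding sequence upstream of the site was 24.3% for rises, 39.4% for all and 51.8% for falls, and 23 of the risen sites had no coding sequence upstream at all. The median length of the genes was 43.4 kb for rises and 50.9 kb for all. In gene models of 5 or more introns, the first intron held 30.3% of the rises, 13.6% of the sites tested and 5.05% of the falls, and the last intron 3.45%, 8.64% and 8.08%. Middle introns were the largest class in each group, with 47.6%, 59.5% and 72.7%. These are descriptions of called sites, and no test of position was run.

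**Figure D4:**
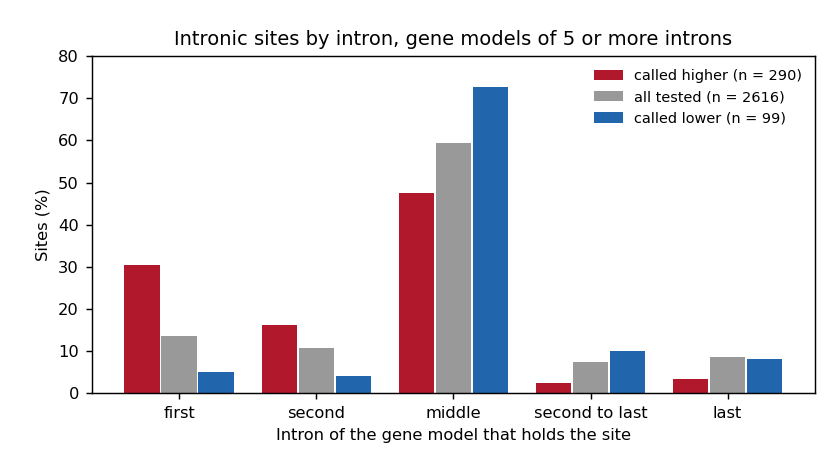
Bars give the percent of intronic pA sites in the first, second, middle, second to last and last intron of gene models with 5 or more introns, for sites called higher (red), all tested sites (grey) and sites called lower (blue). The first intron held 30.3% of the sites called higher, 13.6% of those tested and 5.05% of those called lower, and middle introns 47.6%, 59.5% and 72.7%.

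The levels behind the shares are given as a description, since the intronic sites were chosen from these same reads and their rise in level follows from that choice. In bulk RNA fewer cells of a kind and less RNA per cell cannot be told apart. Over the 347 risen intronic sites the median log2 change in CPM was 3.09 in batch 1 and 3.29 in batch 2, beside 0.35 and 0.44 for all 3102 intronic sites, and over the 3'-most exons of their 334 genes it was -0.16 and -0.51, beside 0.07 and -0.02 for the 6123 genes tested. The sum over all sense sites of these genes changed by a median of 0.32 and 0.04, beside 0.12 and 0.05. Of these genes, 131 had a called fall at the last site and 43 at an upstream site of the 3'-most exon. The RNA-seq libraries of the same groups give a second measure, which the choice of sites did not use. Of the 6521 genes tested in it, 1063 were higher (16.3%) and 1059 lower (16.2%) after siPaf1. Only 168 of the 334 genes with an intronic rise had an RNA-seq value, also without a filter on low counts. Those without one include Col12a1, 2310035C23Rik, Kdm3a, Ell2, Dvl3, Casc5 and Minpp1. Among the 168 genes, 28 were higher (16.7%) and 45 lower (26.8%), with a median log2 change of -0.18 beside 0.02 for all genes. The 967 genes with any tested intronic site are the closer background, and of them 15.9% were higher and 18.8% lower, with a median of -0.02. Among the 54 genes with an intronic fall, 16 were higher (29.6%) and 6 lower (11.1%), with a median of 0.34. Without the batch as a block edgeR called 0 genes in either direction, with 1156 at an unadjusted p under 0.05, and the median for genes with an intronic rise was -0.20. Without the siCtrl library of batch 2 the 168 genes gave 12 higher and 24 lower, beside 400 and 464 of all 6491 genes tested in that fit.

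**Figure D5:**
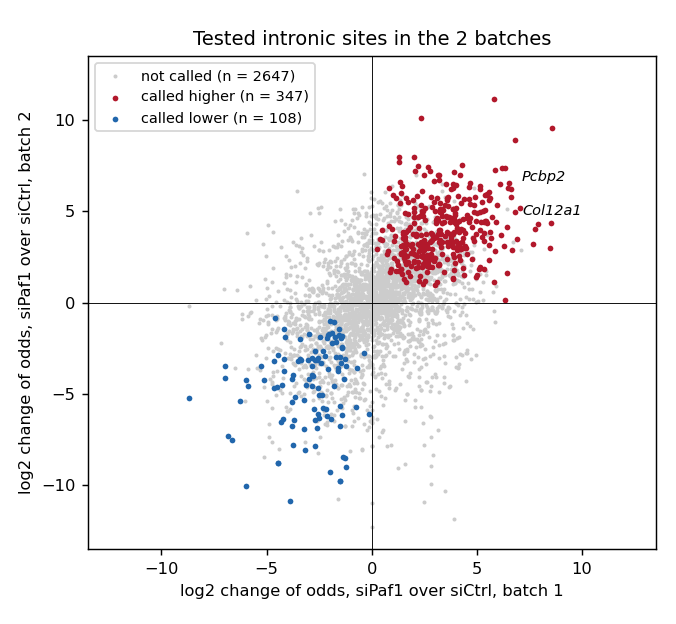
Each point is a tested intronic pA site, with the log2 change in its odds (siPaf1 over siCtrl, 0.5 reads added to both counts) in batch 1 on the x axis and in batch 2 on the y axis, and with sites called higher in red and lower in blue. The 347 sites called higher are above 0 in both batches and the 108 called lower below 0 in both, while the other sites, in grey, spread over all directions. The call requires the sign in batch 1 and batch 2 is part of the fit, so this is no check between batches.

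Sites in internal exons were also called higher more often than lower. Rbbp6 encodes a factor of the cleavage and polyadenylation complex itself, and a site 0.357 kb from its start, ahead of the coding sequence in the gene model, went from 6.98% and 6.02% of reads in siCtrl to 63.5% and 60.0% in siPaf1 (log2 change 4.45, SE 0.61, adjusted p = 8.56e-11). This site held 0.812 and 1.63 CPM in siCtrl and 23.2 and 27.8 CPM in siPaf1, and the 3'-most exon of Rbbp6 held 9.75 and 24.9 CPM and then 12 and 17.6 CPM. Taf5, a subunit of the general transcription factor TFIID, went from 31.5% and 32.6% to 93.2% and 85.0% (adjusted p = 2.66e-06), and its 3'-most exon was lower in both batches, with 6.77 and 15.4 CPM in siCtrl and 1.79 and 2.54 CPM in siPaf1. Gpatch4, a protein with a G-patch domain found in RNA-processing factors, went from 5.88% and 0 of 59 reads, which allows up to 5.08%, to 47.7% and 40.9% at a site 0.414 kb from its start (adjusted p = 0.000671). The sequences at the Rbbp6 and Gpatch4 sites are shown because both lie within 0.414 kb of the gene start, and only the latter has a hexamer in the 40 bases upstream.
Rbbp6 (chr7:130114406-130114435, plus strand): aagtttataaatatacatatattgagagtg
Gpatch4 (chr3:87847415-87847444, plus strand): ggctgggaAATAAAgcttgcctccgccttc

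Among the 6 internal exon sites that fell were those of Wasl, Plekhn1 and Mkks, the 3 named by the same rule. Wasl encodes N-WASP, which drives the branching of actin filaments, and its site went from 84.8% and 44.2% to 25.8% and 3.07% (log2 change -4.25, SE 0.71, adjusted p = 3.13e-07). Plekhn1 had 8 of 21 and 13 of 32 reads at its site in siCtrl and 0 of 54 and 0 of 115 in siPaf1, which allow up to 5.56% and 2.61%. Mkks, a chaperonin-like protein needed for cilia, went from 11.4% and 7.62% to 4.06% and 0.80% (adjusted p = 0.00514). The calls of Plekhn1 and Mkks were lost without siCtrl or siPaf1 of batch 2, and that of Gpatch4 without siCtrl of batch 2.

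Fewer intronic sites fell, and in 5 of the 6 named genes the 3'-most exon held more CPM in siPaf1 than in siCtrl in both batches. Tle2 encodes a co-repressor of the Groucho family, and 98.8% and 100% of its reads in siCtrl ended at a site that the table places in an intron and the gene model in intron 20 of 20, after the coding sequence. In siPaf1 this share was 39.4% and 53.6% (log2 change -7.27, SE 0.93, adjusted p = 2.12e-12), while the 3'-most exon went from 0.135 and 0 CPM to 21.5 and 11.9 CPM. Mvk, mevalonate kinase of the sterol pathway, changed from an intronic site with 72.3% and 30% of reads in siCtrl and 2.99% and 0.69% in siPaf1 to its last site, which rose from 26.2% and 51.1% to 97% and 97.9% (log2 change 6.03, SE 0.94, adjusted p = 2.87e-08). Atrnl1, a relative of attractin, fell from 56.7% and 48.4% to 4.55% and 9.01% in intron 27 of 28 (adjusted p = 1.42e-05). Rbm27, an RNA-binding protein, fell from 41.2% and 50.9% to 13.6% and 7.34% (adjusted p = 0.0246) and was higher in RNA-seq (log2 change 0.90, edgeR adjusted p = 0.00998).

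Ints6 encodes a subunit of Integrator, which cleaves nascent RNA of snRNA and other genes. Its site in intron 18 of 18, after the coding sequence in the gene model, fell from 37.7% and 74.9% to 5.56% and 20.7% (adjusted p = 0.0211), and in contrast to the others its 3'-most exon held at most 0.597 CPM in the siCtrl and siPaf1 libraries. The gene was lower in RNA-seq (log2 change -1.46, edgeR adjusted p = 5.74e-05). Ica1l, a relative of the islet cell autoantigen, had 9 and 11 reads in siCtrl against 14 and 175 in siPaf1. Ica1l thus met the minimums of reads for testing and for naming only through siPaf1 of batch 2, which carries testis transcripts. Its intronic site held 6 of 9 and 10 of 11 reads in siCtrl and 2 of 14 and 9 of 175 in siPaf1, and an upstream site of its 3'-most exon had 0 reads in siCtrl, which allows up to 33.3% and 27.3%, and 8 of 14 and 129 of 175 in siPaf1. Without siCtrl or siPaf1 of batch 2 the calls of Ints6, Rbm27 and both sites of Ica1l were lost. Without siCtrl of batch 1 those of Ints6, Rbm27 and the upstream site of Ica1l were lost, and without siPaf1 of batch 1 those of Ints6 and both sites of Ica1l.

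Within the 3'-most exon, 292 sites upstream of the last one rose, and the 8 named ones belong to genes of varied function. Hipk3, a kinase of transcriptional co-factors, went from 7.63% and 2.34% at its upstream site to 76.0% and 65.7% (log2 change 5.86, SE 0.73, adjusted p = 4.47e-13). The site lies 3297 bases upstream of the last one. The exon as a whole lost reads, from 16 and 43.6 CPM to 6.4 and 10.7 CPM, and the gene was lower in RNA-seq (log2 change -1.11, edgeR adjusted p = 0.00293). Klf6, a zinc finger transcription factor, went from 6.86% and 10.8% to 52.8% and 54.3% (log2 change 3.54, SE 0.53, adjusted p = 4.86e-09) at a site 2281 bases upstream of the last, with the exon higher in each batch, at 23.7 and 51.7 CPM in siCtrl and 55.4 and 86.9 CPM in siPaf1.

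Cyb5r4, a reductase of the cytochrome b5 system, went from 18.4% and 12.9% to 67.1% and 59.2% (adjusted p = 4.97e-06), and Ankrd57, which has ankyrin repeats, from 10.0% and 5.71% to 66.7% and 57.2% (adjusted p = 5.13e-07). Tigd2 went from 28.1% and 46.7% to 76.3% and 94.9% (adjusted p = 0.0115), at a site only 210 bases from the last one. Farp2 went from 22% and 16.3% to 64.9% and 71.0% (adjusted p = 0.0479). In Cdc42se2, a small effector of Cdc42, the site had 0 of 9 reads, which allows up to 33.3%, and 17.1% in siCtrl and 49.3% and 76.8% in siPaf1, and it lies 22925 bases before the last site that the table gives this exon. In the gene model this site precedes the whole coding sequence, so it does not mark a shorter 3'UTR there. Hipk3, Ankrd57, Cyb5r4 and Klf6 were called whichever library was left out, and Tigd2, Farp2 and Cdc42se2 were not. Over all 292 upstream sites that rose, the median distance to the last site was 1751 bases (quartiles 934 and 2693), beside 1078 bases (342 and 2345) for all 8660 tested and 2000 bases (727 and 3725) for the 176 that fell.

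The last site of the gene rose more rarely. Ppp2r1b, a scaffold subunit of the phosphatase PP2A, went from 39.0% and 17.2% to 85.9% and 90.1% (log2 change 4.35, SE 0.65, adjusted p = 5.26e-09), and its 3'-most exon from 3.11 and 1.63 CPM to 31.2 and 35.1 CPM. Toe1, a deadenylase, went from 15.4% and 19.7% to 85.9% and 73.4% (adjusted p = 0.0168), and B4galnt1, an enzyme that makes gangliosides, from 18.5% and 10.5% to 70.7% and 70.1% (adjusted p = 0.00337). Ubxn11 and Ttc21a had at most 8 reads in each siCtrl library, so both met the minimum of 20 reads only through siPaf1. Ubxn11 had 2 of 4 and 0 of 8 reads at its last site in siCtrl, the latter allowing up to 37.5%, and 94 of 99 and 348 of 352 in siPaf1. Ttc21a is 1 of the genes far above every other library in siPaf1 of batch 2, with 328 reads there against 1 read in siPaf1 of batch 1 and 8 and 5 in siCtrl, so its call rests on the library that carries testis transcripts. The calls of Toe1, B4galnt1, Ubxn11 and Ttc21a were lost without siCtrl or siPaf1 of batch 2, those of Toe1 and B4galnt1 also without siCtrl of batch 1, and that of Toe1 also without siPaf1 of batch 1.

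Gene groups were read against all 17940 sites, of which 4.53% rose and 3.76% fell, and their intronic members against all intronic sites, of which 11.2% rose and 3.48% fell with a median log2 change of 0.30, so that a list of few intronic sites can hold 0 falls at this share. In 7 of the 10 lists no intronic site fell. The lists were not matched to these backgrounds in reads per gene. In the fit of genes with at least 50 reads, 319 of 1872 intronic sites rose and 97 fell, with a median of 0.40. The part of depth in the shares of a list was not tested. Of the listed splicing factors and RNA-binding proteins, 66 had 203 tested sites, of which 12 rose (5.91%) and 14 fell (6.90%), beside 4.53% and 3.76% over all sites, and of their 23 intronic sites 7 rose and 0 fell, with a median log2 change of 0.75. Beside Pcbp2, Hnrpll, a regulator of splicing, went from 5.15% and 0.31% to 51.8% and 38.3% in intron 1 of 12 (log2 change 5.74, SE 0.48, adjusted p = 7.61e-30), which was called whichever library was left out. Beside Rbbp6, Col12a1, Pcbp2 and Trp53inp1, the named list genes of which this holds are Hnrpll, Paf1, Atm and Rad50, and each of the others named for a list lost its call without at least 1 library. The Paf1 and Rad50 sites had 0 reads in siCtrl, and the intronic Pcbp2 site and the risen Trp53inp1 sites held under 5% there. The Hnrpll site averaged under 5% over the siCtrl libraries. Of the risen sites named outside the lists, so did those of Zfp280c, Gpatch4 and Hipk3 and the upstream site of Ica1l. All these sites thus met the 5% minimum only through siPaf1. Hnrnpm, another splicing regulator, went from 14% and 6.0% to 35.0% and 39.1% and stood near the threshold (adjusted p = 0.0467). The cleavage and polyadenylation factors had 46 tested sites in 18 of 28 listed genes, and 4 rose (8.70%) and 3 fell (6.52%). Beside Rbbp6, the last site of Cstf3, a subunit of the cleavage stimulation factor, fell from 60.4% and 50.4% to 22% and 13.8% (adjusted p = 0.0116). An upstream site of Wdr33, the subunit of CPSF that contacts the poly(A) signal, fell from 64.2% and 68.0% to 39.6% and 48.6% (adjusted p = 0.0377).

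Extracellular matrix and adhesion genes had 90 tested sites in 31 of 55 listed genes, with 11 that rose (12.2%) and 8 that fell (8.89%), beside 4.53% and 3.76% over all sites. Of their 17 intronic sites 7 rose and 1 fell, with a median of 2.13 beside 0.30 for all intronic sites. Col12a1, which was named ahead of the ranking, belongs to this list, and the list was not tested as a group. Lamc1, the gamma chain shared by many laminins, fell at its last site from 72.8% and 87.7% to 33.7% and 51.3% (adjusted p = 0.000387), and the gene was lower in RNA-seq (log2 change -2.08, edgeR adjusted p = 1.3e-07). Timp3, an inhibitor of matrix metalloproteases, fell at its last site from 92.8% and 84.3% to 55.6% and 56.1% (adjusted p = 0.000171) and was higher in RNA-seq (log2 change 1.04, edgeR adjusted p = 0.0019). A lower share of the last site thus occurred in a gene that was lower and in a gene that was higher.

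The p53 target genes had 37 tested sites in 12 of 25 listed genes, and 5 rose (13.5%) and 2 fell (5.41%), beside 4.53% and 3.76% over all sites. All were in Trp53inp1, Zmat3 and Ccng1, and 3 of the rises were those of Trp53inp1 described above. Zmat3, a zinc finger protein that binds RNA, rose at its last site from 49.0% and 57.5% to 66.3% and 79.3% (adjusted p = 0.0419). Ccng1, cyclin G1, rose at an upstream site from 2.13% and 8.41% to 16.9% and 26.3% (adjusted p = 0.049). Of the 48 sites of muscle regulators and structural genes 2 rose (4.17%) and 2 fell (4.17%). Tpm1, a tropomyosin of the thin filament, fell at its last site from 69.5% and 75.8% to 51.2% and 45.6% (adjusted p = 0.00212) while its 3'-most exon went from 170 and 437 to 401 and 1117 CPM. Igf1r, a growth factor receptor, fell at an upstream site from 18.2% and 3.28% to 0 of 60 reads, which allows up to 5%, and 1.14% (adjusted p = 0.0418).

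Chromatin regulators had 177 tested sites in 54 of 84 listed genes, with 12 that rose (6.78%) and 10 that fell (5.65%), beside 4.53% and 3.76% over all sites, and of 36 intronic sites 10 rose and 4 fell, beside 11.2% and 3.48% over all intronic sites. Nsd1, a methyltransferase of histone H3 lysine 36, went from 13.3% and 14.6% to 47.1% and 82.8% in intron 2 of 22 (adjusted p = 1.86e-05). The last sites of Pbrm1, a subunit of a SWI/SNF complex, and of Ep300, an acetyltransferase, fell from 82.9% and 93.0% to 53.9% and 52.8% and from 93.2% and 90.8% to 68.4% and 44.5% (adjusted p = 0.00373 and 0.00103). Genes of DNA damage repair and replication had 79 tested sites in 29 of 53 listed genes, with 5 that rose (6.33%) and 2 that fell (2.53%). Atm, the kinase that signals DNA breaks, rose in intron 5 of 63 from 2.03% and 21.3% to 22.8% and 78.9% (log2 change 3.80, SE 0.63, adjusted p = 1.82e-07), so that siCtrl of batch 2 came close to siPaf1 of batch 1, while siPaf1 was the higher in each batch. Rad50, which tethers broken DNA ends, had 0 of 285 and 0 of 547 reads in its intron in siCtrl, which allow up to 1.05% and 0.548%, and 3 of 30 and 19 of 148 in siPaf1. Its 3'-most exon dropped from 38.6 and 55.5 to 3.07 and 9.62 CPM, and the gene was lower in RNA-seq (log2 change -2.42, edgeR adjusted p = 3.18e-08). The last site of Fancd2, of the Fanconi anaemia pathway, fell from 55.9% and 61.7% to 36.6% and 18.6% (adjusted p = 0.0253).

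Receptor and kinase signalling genes had 120 tested sites in 40 of 63 listed genes, with 7 that rose (5.83%) and 6 that fell (5.00%), beside 4.53% and 3.76% over all sites, and of 15 intronic sites 5 rose and 0 fell, beside 11.2% and 3.48% over all intronic sites. Mapk14, the p38 kinase needed for myogenesis, went from 1 of 17 and 3 of 32 reads to 29 of 51 and 81 of 165 in intron 1 of 11 (adjusted p = 0.0412). Smad7, an inhibitor of TGF-beta signalling, fell at its last site from 100% and 95.8% to 40.9% and 61.2% (adjusted p = 0.000163). Fgfr1, a receptor of fibroblast growth factors, rose at an upstream site from 37.3% and 59.9% to 60.6% and 83.2% (adjusted p = 0.0379). Genes of silencing by RNA had 42 tested sites in 16 of 26 listed genes, and 3 rose (7.14%) and 3 fell (7.14%). Tnrc6c, a partner of Argonaute, rose at an upstream site from 4.79% and 7.37% to 16.1% and 43.8% (adjusted p = 0.000333), and the last site of Fxr1, an RNA-binding protein, fell from 16.8% and 23.1% to 5.36% and 7.18% (adjusted p = 0.00252). Limd1, a partner of the same machinery, fell at its last site from 4 of 17 and 9 of 96 reads to 1 of 33 and 0 of 157, the latter allowing up to 1.91%.

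Paf1C and elongation factors had 71 tested sites in 23 of 47 listed genes, with 6 that rose (8.45%) and 3 that fell (4.23%), beside 4.53% and 3.76% over all sites. Ell2 was among them, and Ccnt2, a cyclin of the kinase P-TEFb, rose at an upstream site from 22.1% and 7.45% to 33.8% and 66.7% (adjusted p = 0.0285). Paf1 itself had a called site in the exon that the table treats as the 3'-most, with 0 of 130 and 0 of 178 reads in siCtrl, which allow up to 2.31% and 1.69%, and 6 of 23 and 6 of 43 reads in siPaf1. This site lies where only 57.7% of the coding sequence of the gene model is upstream, and its reads come from the transcript that the siRNA targets.

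For the 12 named intronic rises, the shares in the libraries of the other knock-downs stood as follows, as values without a test. Col12a1 had 81.9% and 70.5% at its intronic site in the 2 siCdc73 libraries and 13.1% in the siSki8 library. Pcbp2 had 42.3% and 52.7% with siCdc73 and 3.62% with siSki8, Arfgef1 68.7% and 41.4% and 1.85%, and Errfi1 90.9% and 93.5% and 23.9%. Kdm3a had 80.8% and 58.1% with siCdc73 and 20.4% with siSki8. Syt12 had 8.70% and 48.4% with siCdc73 and 2.33% with siSki8. Dvl3 went against these with siSki8, at 76.0% of only 25 reads, beside 72.2% and 45.9% with siCdc73. The other 5 genes held 2.86% in Zfp280c to 22.4% in 2310035C23Rik with siSki8, and 56.5% in Ell2 to 93.2% in 2310035C23Rik with siCdc73. Hipk3 had 32.7% and 9.51% with siCdc73 and 17.4% with siSki8 at the upstream site that held 76.0% and 65.7% with siPaf1. Tigd2 had 62.5% and 74.0% with siCdc73 and 76.8% with siSki8 at its upstream site, and Cdc42se2 72.1% and 71.2% and then 30.65%. Leaving aside Ica1l, with at most 8 reads there, the other named upstream sites held 14.4% to 34.85% with siCdc73 and 6.63% to 20.4% with siSki8. Among the named intronic falls, siSki8 held 11.8% in Mvk, beside 72.3% and 30% in siCtrl, and 16.3% in Atrnl1, beside 56.7% and 48.4%. It held 44.3% in Rbm27, 49.0% in Ints6, 19 of 20 reads in Tle2 and 4 of 7 in Ica1l. At the named last sites that rose, Mvk had 80.4% with siSki8, beside 26.2% and 51.1% in siCtrl. Ubxn11 had 14 of 15 reads, beside 2 of 4 and 0 of 8. Toe1 had 17.9%, Ppp2r1b 28.2%, B4galnt1 0 of 37 reads, which allows up to 8.11%, and Ttc21a no reads. The siPaf1 and siCdc73 libraries were read against the same siCtrl libraries.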

How the data were processed

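Poly(A)+ RNA of C2C12 myoblasts was read by 3'READS in 7 libraries. Per the submitters' processing notes Bowtie2 and mm9 were used, with no version given. The authors kept reads with a poly(A) tail that is not in the genome, grouped them into pA sites, and deposited raw counts per site, without normalization. RNA-seq counts were deposited per transcript over the coding region, beside RPKM values, which were not used. Every per-sample column was matched by name (0 unmatched).

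Upstream antisense sites were left out. Each site was tested against the other sense reads of its gene in edgeR 4.0.16 (R 4.3.3) by the quasi-likelihood test, with 1 coefficient per library, a term for the batch and 1 per knock-down, over all 7 libraries (2 residual degrees of freedom), which absorbs library size. Sites were called at an adjusted p under 0.05 with the same direction in batch 1. The batch was used as a block because the labels pair the libraries by batch, and the between-batch differences of siCtrl and siPaf1 correlated with r = 0.508. In simulated data with 200 changed sites and batches that differed, 29 were recovered for 4-fold and 1 for 2-fold changes of odds with the block. Without the block 0 were recovered, and at most 1 site of 17940 was called wrongly. Most changes of this size were thus missed in the simulation. It drew reads with the spread that edgeR fitted as a trend, and changed fewer sites than the 1487 called here. Its rates of error and recovery therefore do not carry over to the real calls. The genes of the RNA-seq table were tested by edgeR with TMM normalization and the same block, 1 transcript per gene. DESeq2 1.42.0 and limma 3.58.1 were alternatives. Gene models were GENCODE vM1 on mm9, and 98.4% of sites matched one. Python 3.11.15 with pandas 2.3.3, pysam 0.24.0 and matplotlib 3.10.9 served for sequences, tables and plots.

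The genes named are Pcbp2, Col12a1 and Trp53inp1, and called sites in genes averaging 50 reads or more whose siPaf1 shares lie on 1 side of the siCtrl shares, ranked by the smaller change of the 2 batches: 12 intronic rises, 6 falls, 8 upstream and 6 last-site rises, 3 internal exon sites each way and at most 3 per gene list. The members, lists and rules were chosen with earlier results of these data known. Depth was 7385518 to 13403708 reads in the 4 libraries compared, and intervals cover counting error only, since reads carry no molecular identifiers here.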

Additional observations from a re-analysis of the deposited data

Results flagged for a closer look

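The summed level of testis germ cell markers was 2536 CPM in the siPaf1 library of batch 2 and 8.70 CPM in that of batch 1, against 1.49 and 5.51 CPM in siCtrl of batches 1 and 2. The levels of these markers were not used in the comparison of site shares, and the sums were above those of the control libraries. In siPaf1 of batch 1 this rests on Sycp3, with 7.42 of the 8.70 CPM, and 18 of the 21 markers had 0 reads there against 16 in each siCtrl library. Of the 1487 calls, 7 were in genes more than 20-fold above every other library in siPaf1 of batch 2, and without those genes 809 sites were higher and 671 lower. The part of these transcripts in the other calls was not tested. Without that library 227 sites were higher and 144 lower.

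Reads at upstream antisense sites, which the shares leave out, made up 0.174% of the siPaf1 library of batch 1 and 0.203% of that of batch 2, above the 0.160% and 0.138% of the siCtrl libraries. The difference was not tested, and the siCdc73 libraries held 0.225% and 0.205%.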

How the results depend on the processing

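Of 72 named sites in 61 genes, 71 of them called, none changed direction under any alternative that could be fitted. Without the replicate block 812 higher and 675 lower sites became 2 and 0 (intronic 2 and 0, upstream 0 and 0) and the intronic median 0.27, with 1404 sites at an unadjusted p under 0.05, and the RNA-seq median of genes with an intronic rise went from -0.18 to -0.20. DESeq2 gave 506 and 400 (intronic 225 and 53, upstream 172 and 98). limma gave 0 in each of the 6 counts, with 2918 sites at an unadjusted p under 0.05, and limma with a trend on reads, chosen after seeing the data, 285 and 276 (142 and 28, 66 and 49), both with an intronic median of 0.22. Leaving out 1 library gave 161 to 735 higher and 107 to 637 lower sites, 102 to 277 and 13 to 85 intronic, 36 to 317 and 18 to 165 upstream, and an intronic median of 0.27 to 0.41. With sites of at least 10% of the gene 213 intronic sites rose. The intronic median was 0.53 with sites of at least 1%, 0.40 with genes of at least 50 reads and 0.21 with no minimum. Other settings kept these counts within 1.5 times, but with sites of at least 1% of the gene only 785 of the 1487 sites were called again and 20 of the 72 named ones lost their call. Of the 71 called named sites, 32 in 26 genes were called in all 4 fits with 1 library left out. Low depth in siCtrl limits Dvl3, Ica1l, Ubxn11, Ttc21a, Mapk14 and Cdc42se2 most.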

Other observations

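The named intronic sites of Casc5 and Ica1l ended in the same letters. The last 11 bases of the windows at Casc5, which rose, and Ica1l, which fell, are aataaatcttt, and they are shown because the surrounding bases are alike too. Capitals mark the AATAAA nearest the cut, and further copies overlap it upstream in both windows.
Casc5 (chr2:118885740-118885769, plus strand): cacatataataaataaataAATAAAtcttt
Ica1l (chr1:60077218-60077247, minus strand): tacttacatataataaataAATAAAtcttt
A search for aataaatcttt on the strand of the gene in the 30 bases before each tested site, chosen after these windows were seen, found it at 187 of the 3102 intronic sites (6.03%), 20 of 8660 upstream sites of the 3'-most exon (0.231%) and 45 of 6031 last sites (0.746%). The intronic sites that hold it fell more often than they rose: 16 of the 187 fell and 4 rose, and their median log2 change was -0.64 (by batch -0.59 and -0.61), beside 0.38 (0.34 and 0.31) for intronic sites without it. They made up 14.8% of the intronic falls and 1.15% of the intronic rises. Summed over these 187 sites, they held 31.0% and 25.8% of the reads of their genes in siCtrl and 26% and 19.7% in siPaf1. Whether these bases belong to a repeat was not tested.

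In 4128 genes the most used site was the same in both siCtrl libraries and the same in both siPaf1 libraries. It differed between the groups in 244 of them, and in 91 the new main site was a called rise. The new main site was intronic in 40 of these 91, 26 of which had used the last site before and 12 an upstream site of the 3'-most exon. The reverse change, from an intron to the 3'-most exon, was seen in 6. Introns held only 5.00% and 3.76% of the reads at tested sites in siCtrl. The genes whose main site in siCtrl was intronic were not counted, so the directions cannot be compared as rates.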
